A study of Homo sapiens with 4 samples.

Results

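Chemokines are small secreted or membrane-tethered proteins that recruit leukocytes, and 10 genes for chemokines that epithelial cells are known to make were examined in Caco-2 cells, a human colorectal carcinoma line used as a model of intestinal enterocytes. They were chosen by gene symbol from the 37515 genes of the count table, and all 10 had a row. They comprise 3 ligands of the receptor CXCR3 (CXCL9, CXCL10 and CXCL11), 4 neutrophil-attracting ligands (CXCL1, CXCL2, CXCL3 and CXCL8), the membrane-tethered chemokines CXCL16 and CX3CL1, and the CCR6 ligand CCL20. The cells were grown on transwells for 15 days, and the basal compartment then received 60 ng/ml IFNγ for 3 h (2 libraries), while the control cells received medium alone and were labelled as unstimulated at 0 h (2 libraries). All 4 libraries were labelled WT (wild type), with no genetic change named, and both conditions used the same cancer cell line. Because the control was taken at 0 h, an effect of IFNγ and an effect of the 3 h that passed cannot be told apart. The labels do not say that the replicates were separate cultures, so p-values measure the spread between these libraries only, which may be technical. In bulk RNA, fewer cells making a transcript and less of it per cell cannot be told apart.

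The CXCR3 ligands draw in activated T cells and natural killer cells, and they are textbook targets of IFNγ, which acts through its receptor, the JAK kinases and the transcription factor IRF1. The neutrophil-attracting ligands and CCL20 are known as targets of NF-κB, the pathway downstream of TNF, IL-1 and IL-17. CXCL16 and CX3CL1 are made as transmembrane proteins that hold cells bearing CXCR6 or CX3CR1, and metalloproteases of the ADAM family release them from the surface.

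Each library held 7171455 to 10365346 counts, and 14820 genes passed edgeR's filter on low counts. Levels are given as counts and as CPM, the usual unit of counts relative to library size, here with library sizes scaled by the TMM method. A gene was called when edgeR's quasi-likelihood test gave it a Benjamini-Hochberg adjusted p under 0.05 and its log2 fold change was above 1 or below -1. By that rule 427 genes were called higher and 652 lower, and 387 and 323 after a trend with GC content and length was removed from each library. The 11 epithelial markers checked, such as VIL1 and CDH1, were all expressed (summed level 8350 to 10700 CPM). Of these, CDX2 was called higher (log2 fold change 1.20) and SI lower (-1.13), and neither was called after the GC and length trend was removed (0.97 and -0.70). The 4 fibroblast markers summed to 196 and 102 CPM without and 178 and 136 CPM with IFNγ, mostly COL1A1. COL3A1 had 117 and 57 counts without and 53 and 60 with IFNγ, PDGFRB 52 and 30 against 54 and 68, and COL1A2 at most 1. None of the 3 tested fibroblast markers was called. Of the endothelial markers, VWF had 18 and 8 counts without and 17 and 16 with IFNγ and was not called, and CDH5 had at most 2. The leukocyte marker PTPRC had at most 2 counts in any library. The 5 leukocyte markers summed to 6.43 and 8.27 CPM in the unstimulated libraries and to 9.43 and 11.3 CPM after IFNγ, mostly CD14, and neither of the 2 that were tested was called. Their part in the chemokine values was not tested.

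The sequences before the transcription start of the CXCR3 ligand genes are shown because these genes share a locus and differed in how many reads they gave after IFNγ. Of the 10 genes, 8 were matched to the RefSeq promoters of GRCh38.p14 (all but CXCL16 and CX3CL1). The 250 bases before the start are written 5′ to 3′ along the gene, on the minus strand for these 3 genes, at chr4:76007510-76007759 for CXCL9, chr4:76023498-76023747 for CXCL10 and chr4:76036071-76036320 for CXCL11. Capitals mark matches to any of 3 motifs, searched on both strands: the interferon-stimulated response element (ISRE, GAAANNGAAA), the gamma-activated sequence (GAS, TTCNNNGAA) and the NF-κB consensus.
CXCL9: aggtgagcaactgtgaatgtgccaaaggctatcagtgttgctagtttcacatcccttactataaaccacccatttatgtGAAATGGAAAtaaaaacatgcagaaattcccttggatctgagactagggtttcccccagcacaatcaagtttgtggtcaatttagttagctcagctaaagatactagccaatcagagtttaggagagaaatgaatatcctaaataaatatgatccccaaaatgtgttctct
CXCL10: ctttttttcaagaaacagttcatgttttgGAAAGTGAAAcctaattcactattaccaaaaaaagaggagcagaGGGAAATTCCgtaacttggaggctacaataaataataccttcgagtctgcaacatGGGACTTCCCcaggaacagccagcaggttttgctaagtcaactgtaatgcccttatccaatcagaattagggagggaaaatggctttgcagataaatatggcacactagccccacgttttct
CXCL11: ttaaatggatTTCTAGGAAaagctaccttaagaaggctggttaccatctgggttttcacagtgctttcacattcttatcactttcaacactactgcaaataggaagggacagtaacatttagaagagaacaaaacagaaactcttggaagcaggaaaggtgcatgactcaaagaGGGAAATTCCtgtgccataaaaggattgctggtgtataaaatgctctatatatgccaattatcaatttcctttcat

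CXCL9 held 1 ISRE match, 171 to 162 bases before the start. CXCL10 held 1 ISRE match, 221 to 212 bases before the start, and NF-κB matches at 177 to 168 and 122 to 113 bases, the latter on both strands. CXCL11 held a GAS match at 240 to 232 bases and an NF-κB match at 76 to 67 bases before the start. Among all 35116 RefSeq promoters of this length, 3.02% held an ISRE match, 6.57% a GAS match and 9.96% an NF-κB match. A match of letters does not show that a factor binds there, and no match says only that these letters were not in the window.

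The neutrophil-attracting ligands CXCL1, CXCL2 and CXCL3 shared a near-identical stretch before their starts, which is shown because these genes also resemble each other in their transcripts. The last 110 bases before the start are given for them at chr4:73869283-73869392 (plus strand), chr4:74099196-74099305 (minus strand) and chr4:74038690-74038799 (minus strand) and for CCL20 at chr2:227813732-227813841 (plus strand), with NF-κB matches in capitals.
CXCL1: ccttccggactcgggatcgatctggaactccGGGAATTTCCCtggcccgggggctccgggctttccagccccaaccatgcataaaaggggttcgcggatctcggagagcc
CXCL2: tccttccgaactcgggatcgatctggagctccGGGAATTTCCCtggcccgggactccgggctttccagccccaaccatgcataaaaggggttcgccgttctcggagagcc
CXCL3: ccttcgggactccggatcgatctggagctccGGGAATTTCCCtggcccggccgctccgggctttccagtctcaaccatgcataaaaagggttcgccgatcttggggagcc
CCL20: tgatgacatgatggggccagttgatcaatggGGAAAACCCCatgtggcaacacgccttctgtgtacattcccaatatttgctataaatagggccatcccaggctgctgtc

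Aligned over these bases, CXCL1 and CXCL2 were identical at 93.7% of positions, CXCL1 and CXCL3 at 90.0%, and CXCL2 and CXCL3 at 88.3%. Each of them held overlapping NF-κB matches on both strands that began 79 to 77 bases before the start, and CCL20 held 1 that began 79 bases before it. None of the motifs matched in the 250 bases of CXCL8. In all, 6 of the 8 promoters held an NF-κB match, 2 an ISRE match and 1 a GAS match. Over all RefSeq promoters of this length the shares were 9.96%, 3.02% and 6.57%. The NF-κB matches of CXCL1, CXCL2 and CXCL3 lie in their near-identical stretch and are not independent of each other.

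**Figure D1:**
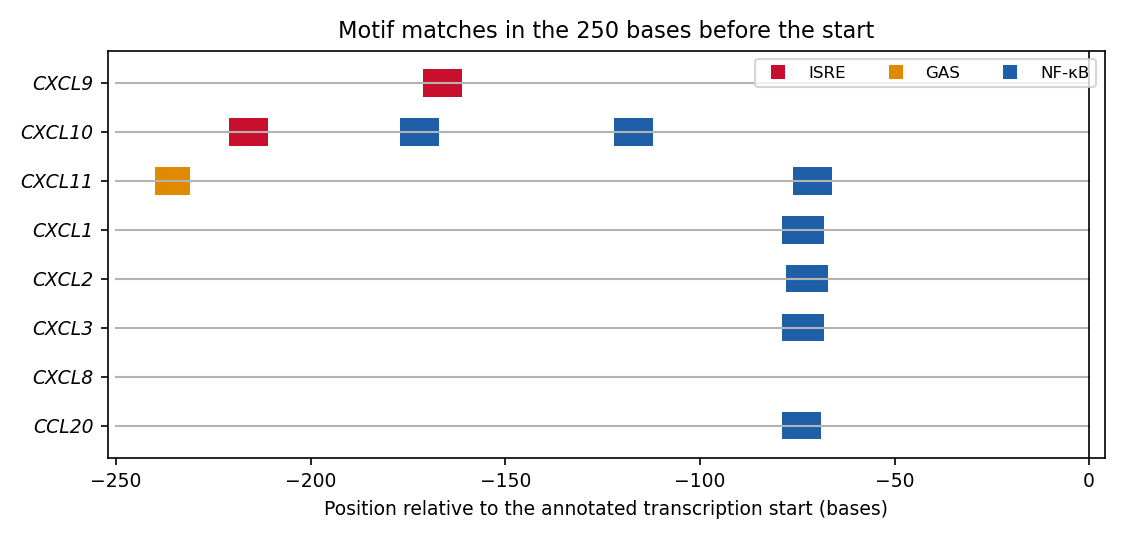
Matches to the ISRE, GAS and NF-κB motifs (coloured boxes, either strand) in the 250 bases before the annotated start of 8 chemokine genes, with distance from the start in bases on the x axis. ISRE matches lie in CXCL9 and CXCL10, and the NF-κB matches of CXCL1, CXCL2, CXCL3 and CCL20 begin 79 to 77 bases before the start.

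CXCL9 was the single member called after 3 h of IFNγ, 1 gene beside a background of 2.88% of all tested genes called higher. It had 0 counts in both unstimulated libraries, 22 counts in IFNγ replicate 1 and 11 in IFNγ replicate 2. Both IFNγ libraries were thus above both unstimulated ones, as for 31.6% of all tested genes. They were at 2.14 CPM (95% exact binomial interval 1.34 to 3.24) and 1.50 CPM (0.749 to 2.69), a mean of 1.82 ± 0.452 (SD, n = 2). The absence of counts among 17162407 in the unstimulated libraries allows a level of up to 0.172 CPM (3 counts over the group). The observed IFNγ level was 10.9-fold this limit, with no allowance for counting error in the IFNγ counts. Intervals and limits of this kind cover counting error only. The adjusted p from edgeR was 0.00773. It ran from 0.00341 to 0.00988 over the edgeR alternatives with the same filter and all 4 libraries. Without a filter on low counts it was 1.51e-07, which is not comparable with the others. CXCL9 passed the filter only through the IFNγ libraries and therefore had to differ. Without IFNγ replicate 1 it did not pass, and DESeq2 gave it no adjusted p.

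The other CXCR3 ligands gave almost no reads at 3 h. CXCL10 had 0 counts in both unstimulated libraries, 2 in IFNγ replicate 1 and 1 in IFNγ replicate 2. CXCL11 had 0 counts in both unstimulated libraries, 3 in IFNγ replicate 1 and 0 in IFNγ replicate 2. Their reads came from the IFNγ libraries alone, but neither gene passed the filter, and their 3 counts each over the IFNγ group are no more than the unstimulated group's count of 0 allows. A change in either gene was not detectable at this depth. CXCL9, CXCL10 and CXCL11 lie next to each other on the minus strand of chromosome 4 between 76922428 and 76962568 (GRCh37). CXCL10 and CXCL11 lie inside ART3 on the opposite strand without sharing exon bases, and ART3 had 0 counts in every library.

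**Figure D2:**
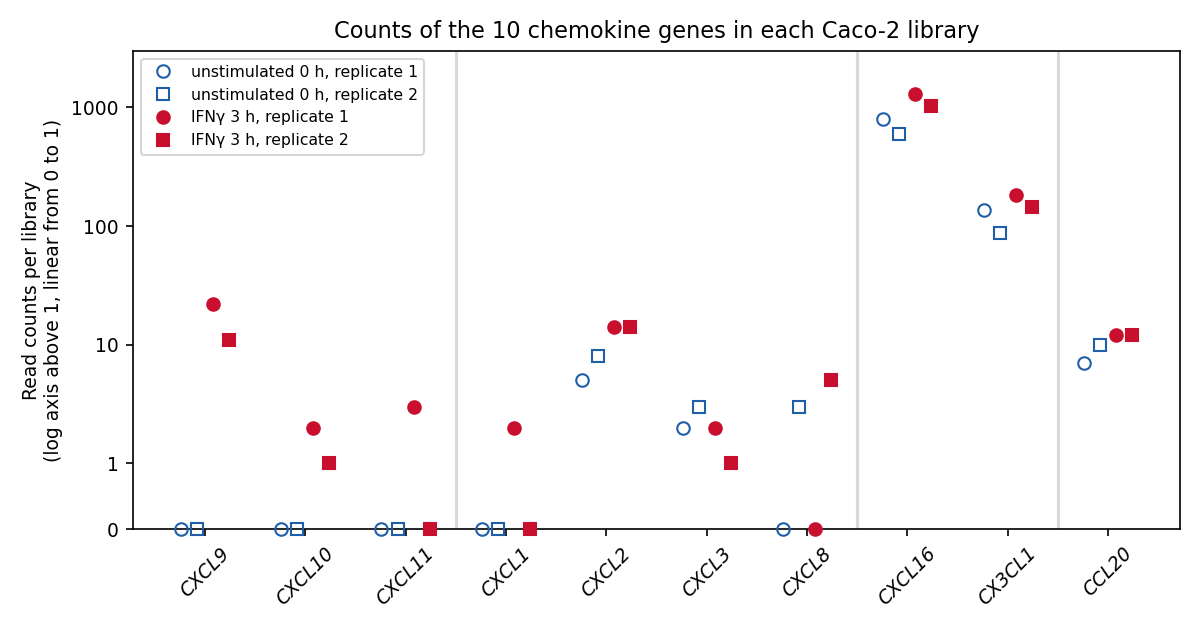
Read counts of the 10 chemokine genes in each of the 4 libraries (y axis logarithmic above 1 and linear from 0 to 1), with open blue symbols for unstimulated cells and filled red symbols for IFNγ. CXCL16 and CX3CL1 hold at least 87 counts in every library, CXCL9 has 22 and 11 counts after IFNγ against 0 and 0, and the other 7 genes have at most 14 counts in any library.

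The neutrophil-attracting ligands were at or near the limit of detection in both conditions. CXCL8, the main neutrophil chemoattractant known as interleukin-8, had 0 counts in unstimulated replicate 1, 3 in unstimulated replicate 2, 0 in IFNγ replicate 1 and 5 in IFNγ replicate 2. Its reads were thus found in the replicate 2 libraries of both conditions and in neither replicate 1 library, although replicate 1 was the deeper. Over the group sums of 3 and 5 counts the ratio of IFNγ to unstimulated was 1.65, with an exact 95% interval of counting error from 0.321 to 10.6.

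CXCL1 had 0 counts in both unstimulated libraries, 2 in IFNγ replicate 1 and 0 in IFNγ replicate 2. CXCL3 had 2 and 3 counts without IFNγ and 2 and 1 in the IFNγ libraries, a ratio of group sums of 0.593 (exact 95% interval of counting error 0.0921 to 3.05). Neither these nor CXCL8 passed the filter, so they were not tested.

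CXCL2 was the neutrophil-attracting ligand with the most reads. It had 5 and 8 counts without IFNγ and 14 in each IFNγ library. Both IFNγ libraries were above both unstimulated ones, as for 31.6% of all tested genes, with 0.487 and 1.12 CPM against 1.36 and 1.91 CPM. The log2 fold change was 1.07 (SE 0.544, 95% interval -0.21 to 2.34), which did not pass the test (adjusted p = 0.208 from edgeR). It was 0.52 without unstimulated replicate 1 and 1.71 without unstimulated replicate 2. CXCL2 too passed the filter only through the IFNγ libraries. These 4 genes form a cluster on chromosome 4 between 74606236 and 74964913 (GRCh37). Of the 50-base windows in the annotated transcripts, 13.4% of those of CXCL2, 6.01% of those of CXCL3 and 4.57% of those of CXCL1 also occurred in another of these 3 genes, so their counts are uncertain where reads fell in such windows.

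CCL20, the ligand that guides CCR6-bearing dendritic cells and lymphocytes to the epithelium, was likewise low. It had 7 and 10 counts without IFNγ and 12 in each IFNγ library. At 0.682 and 1.40 CPM against 1.17 and 1.64 CPM, the groups overlapped. Its log2 fold change of 0.46 (SE 0.524, 95% interval -0.77 to 1.69) missed the threshold in edgeR (adjusted p = 0.573). It was -0.02 without unstimulated replicate 1 and 1.02 without unstimulated replicate 2. CCL20 lies on the plus strand of chromosome 2 from 228670455 to 228682280 (GRCh37).

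CXCL16 was the most highly expressed chemokine of the 10 in every library. It had 801 and 600 counts without IFNγ and 1301 and 1035 in the IFNγ libraries, or 78.0 and 84.1 CPM against 127 and 141 CPM. Both IFNγ libraries were above both unstimulated ones, which was also the case for 31.6% of all tested genes. The mean was 81.0 ± 4.29 CPM (SD, n = 2) without and 134 ± 10.4 CPM (SD, n = 2) with IFNγ, and CXCL16 thus rose 1.65-fold. The log2 fold change was 0.72 (SE 0.121, 95% interval 0.44 to 1.01), with an adjusted p of 0.00742 from edgeR. CXCL16 was therefore higher on the adjusted p, as were 9.02% of all tested genes. It did not pass the threshold on the fold change and was not called. The log2 differences within the same-numbered libraries were 0.70 and 0.75.

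The adjusted p of CXCL16 was at most 0.0379 under every alternative. Across genes the log2 fold change rose with GC content (Spearman rho = 0.431 over 14518 genes, which are not independent replicates). The longest transcript of CXCL16 has a GC content of 57.4%, and with the trend of GC content and length removed its log2 fold change was 0.48 (adjusted p = 0.0239 from edgeR). CXCL16 lies on the minus strand of chromosome 17 from 4636828 to 4643223 (GRCh37). Of its exon bases 3.40% overlap ZMYND15 and 2.70% overlap MED11 on the other strand, and whether reads were counted by strand is not given in the sources used here. ZMYND15 had 36 to 88 counts and MED11 70 to 90 counts per library, against at least 600 for CXCL16.

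CX3CL1, also called fractalkine, had 137 and 87 counts without IFNγ and 183 and 145 in the IFNγ libraries. On the CPM scale these were 13.3 and 12.2 against 17.8 and 19.8. Both IFNγ libraries were thus above both unstimulated ones, as for 31.6% of all tested genes. The mean was 12.8 ± 0.814 (SD, n = 2) in unstimulated cells and 18.8 ± 1.40 (SD, n = 2) CPM after IFNγ. The log2 fold change of 0.55 (SE 0.170, 95% interval 0.15 to 0.95) missed the threshold in edgeR (adjusted p = 0.0601). The adjusted p ran from 0.0300 to 0.241 over the alternatives and was under 0.05 with upper quartile scaling (0.0485) and with the replicate number as a block (0.0300). CX3CL1 lies on the plus strand of chromosome 16 from 57406389 to 57418956 (GRCh37), where its exons overlap no other annotated gene.

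**Figure D3:**
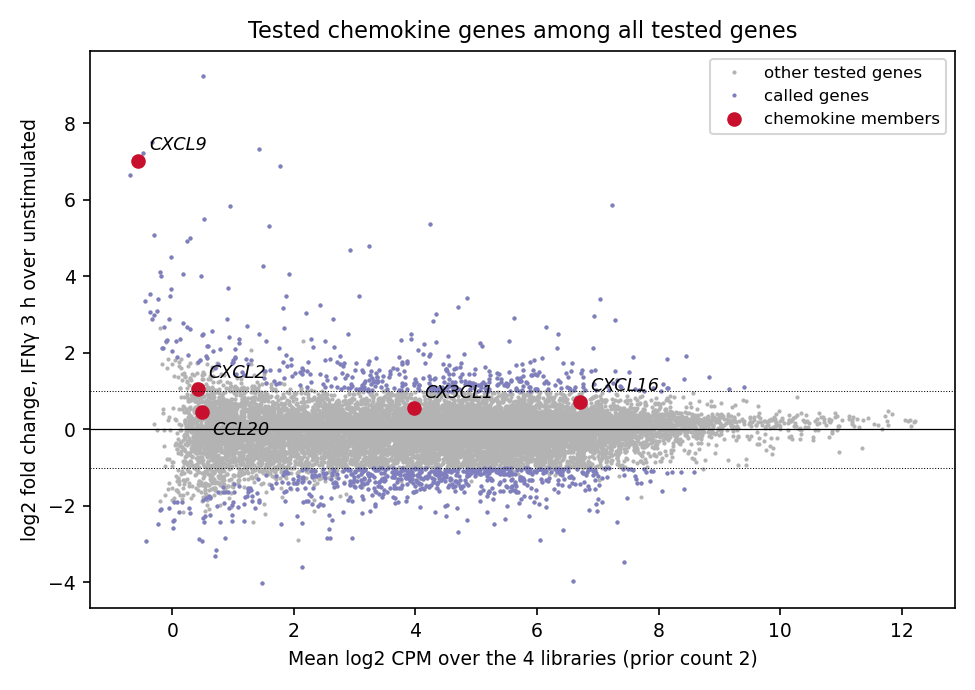
Log2 fold change (IFNγ 3 h over unstimulated, y axis) against the mean log2 CPM over the 4 libraries (x axis) for 14820 tested genes, with the 5 tested chemokine genes in red and dotted lines at 1 and -1. CXCL16 and CX3CL1 lie at 0.72 and 0.55, CXCL2 and CCL20 lie among genes of low level, and the height of CXCL9 depends on the prior count because its unstimulated libraries hold 0 counts.

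Levels of different genes were compared per kilobase of annotated exon. In unstimulated cells CXCL16 had 29.0 ± 1.54 (SD, n = 2) CPM per kilobase, CX3CL1 2.14 ± 0.137, CCL20 0.653 ± 0.319 and CXCL2 0.575 ± 0.321. After IFNγ CXCL16 had 47.9 ± 3.71 CPM per kilobase (SD, n = 2), CX3CL1 3.15 ± 0.235, CXCL2 1.17 ± 0.277, CCL20 0.880 ± 0.209 and CXCL9 0.659 ± 0.164. CXCL16 was above CX3CL1, and CX3CL1 above the rest, by more than the spread between replicates. CXCL2 and CCL20 did not differ beyond their spread in either condition, nor did CCL20 and CXCL9 after IFNγ. This order depends on the length used for CCL20. Per kilobase of the longest annotated transcript CCL20 had 1.24 ± 0.606 CPM without and 1.67 ± 0.396 with IFNγ (SD, n = 2), against 0.721 ± 0.402 and 1.47 ± 0.348 for CXCL2, and after IFNγ it was above CXCL9 (0.659 ± 0.164) by more than the spread. By exon length the other 5 genes had at most 0.141 CPM per kilobase. The mean level of CXCL16 was above that of 85.2% of tested genes, that of CX3CL1 above 42.1%, and those of CXCL2, CCL20 and CXCL9 above 2.83%, 2.87% and 0.270%.

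**Figure D4:**
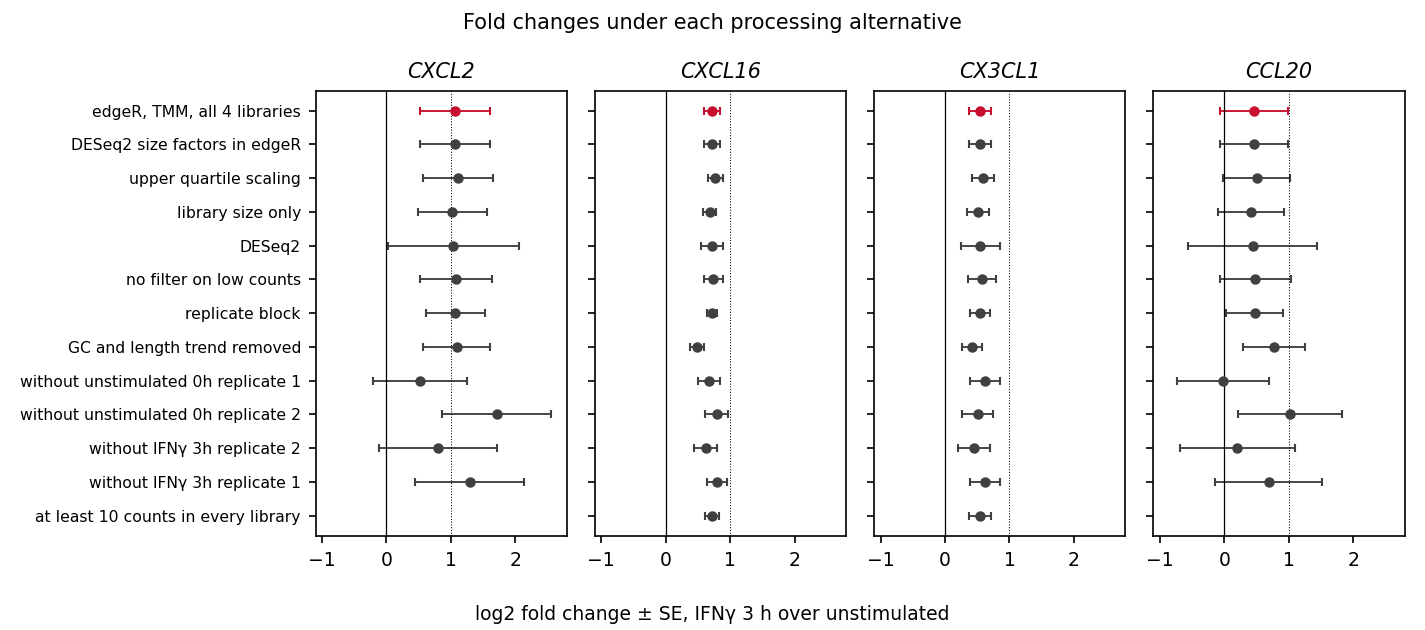
Log2 fold change ± SE (x axis) of CXCL2, CXCL16, CX3CL1 and CCL20 in the fit reported and under each processing alternative (y axis), with lines at 0 and 1. CXCL16 stays between 0.48 and 0.79 and CX3CL1 between 0.42 and 0.62, whereas CXCL2 moves from 0.52 to 1.71 and CCL20 from -0.02 to 1.02 as single libraries are left out.

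Among the other chemokine genes with a row, all but CCL28 gave few reads. Of 36 other chemokine genes listed, 17 were matched to a row and the other 19 were not analysed here. Of the 17, 6 had 0 counts in every library, and 2 passed the filter, of which 0 were called (a background of 2.88% higher and 4.40% lower). Both were lower at an unadjusted p under 0.05 in edgeR, and DESeq2 called 0. CCL28, a mucosal chemokine for CCR10-bearing plasma cells, was the most abundant of them, with 317 and 181 counts without IFNγ and 199 and 158 after IFNγ. Its log2 fold change was -0.47 (SE 0.167, adjusted p = 0.0900 from edgeR). XCL1, a chemokine known from T and natural killer cells, had 32 and 18 counts against 16 and 8, and a log2 fold change of -1.07 that did not pass in edgeR (adjusted p = 0.0971), although it was called with the replicate number as a block (0.0481). CCL2, the monocyte chemoattractant, is named because of its values. It had 1 count in each unstimulated library and 9 and 8 counts after IFNγ, and it did not pass the filter. The ratio of group sums was 8.40, with an exact 95% interval of counting error from 1.99 to 75.0. That interval does not allow for the choice of CCL2 by its values.

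Receptors for these chemokines gave few reads in Caco-2 cells. Of 23 receptor genes 21 had a row and 4 passed the filter. CXCR3 had 0 counts in every library, CXCR1 and CXCR2 had 0, CXCR6 had at most 4, CX3CR1 at most 3 and CCR6 at most 1. Of the tested receptors 2 were called higher and 0 lower, beside 2.88% and 4.40% of all tested genes. CCR1, a receptor for inflammatory CC chemokines, had 4 and 7 counts without IFNγ and 28 and 20 after IFNγ, which gave a log2 fold change of 2.06 (SE 0.502, edgeR adjusted p = 0.0286). CCRL2, an atypical receptor that binds chemerin without signalling, had 2 counts in each unstimulated library and 14 and 17 after IFNγ (adjusted p = 0.0192 from edgeR). Both passed the filter through the IFNγ libraries alone. The call of CCR1 was lost without unstimulated replicate 1 (log2 fold change 1.46, adjusted p = 0.189) and without IFNγ replicate 1 (2.04, 0.0980), all from edgeR. That of CCRL2 was lost without unstimulated replicate 1 (2.62, edgeR adjusted p = 0.141) and without IFNγ replicate 2 (2.47, 0.151). DESeq2 gave neither gene an adjusted p, and neither was tested with at least 10 counts required in every library. ACKR2 and ACKR3, scavenging receptors, had log2 fold changes of 0.58 and -0.32 and were not called.

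The pathway from the IFNγ receptor to IRF1 was measured in the same libraries, and of its 9 listed genes, all tested, 2 were called higher and 0 lower, beside 2.88% and 4.40% of all tested genes. With the replicate number as a block, and also without a filter on low counts, 4 were called higher, with IRF9 and SOCS1 added. The p-values without that filter are not comparable with the others. IRF9 had 22 and 7 counts without IFNγ and 68 and 14 after IFNγ (adjusted p = 0.151 from edgeR in the fit reported). SOCS1 had 1 and 4 counts against 14 and 12 (0.0597), and it passed the filter through the IFNγ libraries alone. The median log2 fold change of this list was 0.78, against -0.01 over all tested genes. IRF1, the transcription factor that acts on many IFNγ targets, had 198 and 144 counts without IFNγ and 12348 and 7949 after IFNγ, a log2 fold change of 5.86 (SE 0.139). IRF8, a related factor, was the other gene called, at 1.11 (SE 0.122). JAK1, a receptor-bound kinase, was at 0.36 (adjusted p = 0.0672 from edgeR) and was not called. IFNGR1, the ligand-binding receptor chain, was at 0.78 (adjusted p = 0.00938 from edgeR), under the fold change threshold. IFNGR2, the other receptor chain, was at -0.51 (adjusted p = 0.0398 from edgeR), also short of it. In the same 2 IFNγ libraries CXCL9 had 22 and 11 counts, CXCL10 2 and 1, and CXCL11 3 and 0. A link between these counts and the IRF1 level was not tested.

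Genes of the pathways known to drive the neutrophil-attracting ligands were tested as well. Of 13 tested NF-κB subunits and inhibitors 2 were called higher and 0 lower (background 2.88% and 4.40%), with a list median of 0.18. RELB, a subunit of the alternative NF-κB pathway, was at 1.26 (adjusted p = 0.00721) and BCL3, a nuclear partner of NF-κB, at 1.03 (adjusted p = 0.00412, both from edgeR). With the GC and length trend removed these were 0.99 and 0.75, and neither was called. RELA, the main activating subunit, was at 0.78 (adjusted p = 0.00523 from edgeR) and NFKBIZ, a coactivator, at 0.21 (adjusted p = 0.265), neither called. TNFAIP3, a feedback inhibitor and NF-κB target, was at -0.93 (adjusted p = 0.00437 from edgeR), also short of the fold change threshold. Of 9 AP-1 and C/EBP factors 2 were called higher and 0 lower (background 2.88% and 4.40%). FOSB, which passed the filter through the IFNγ libraries alone, was at 4.26 (SE 0.367) and FOSL1 at 3.04 (SE 0.321), whereas FOS, FOSL2 and JUND were at -0.52, -0.25 and 0.62 and were not called.

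Among cytokines that induce these chemokines and their receptor chains, 9 of 12 genes with a row were tested, 2 were called higher and 1 lower (background 2.88% and 4.40%). TNFRSF1A, the main TNF receptor, had a log2 fold change of 1.52 (SE 0.117, 91.7 ± 6.27 to 263 ± 11.6 CPM, SD, n = 2). TNFRSF1B, the other TNF receptor, was at 1.54 (SE 0.163). LTBR, the lymphotoxin receptor, was at 0.61 and IL22RA1, a chain of the IL-22 receptor, at -0.02, and neither was called. TNF itself had 0 or 1 counts and was not tested. IL1B, the gene for interleukin-1β, had 12 and 11 counts without IFNγ and 2 in each IFNγ library (log2 fold change -2.48, adjusted p = 0.0301 from edgeR). IL1B passed the filter through the unstimulated libraries alone, and its call was lost when any single library was left out, with adjusted p from 0.128 to 0.200.

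**Figure D5:**
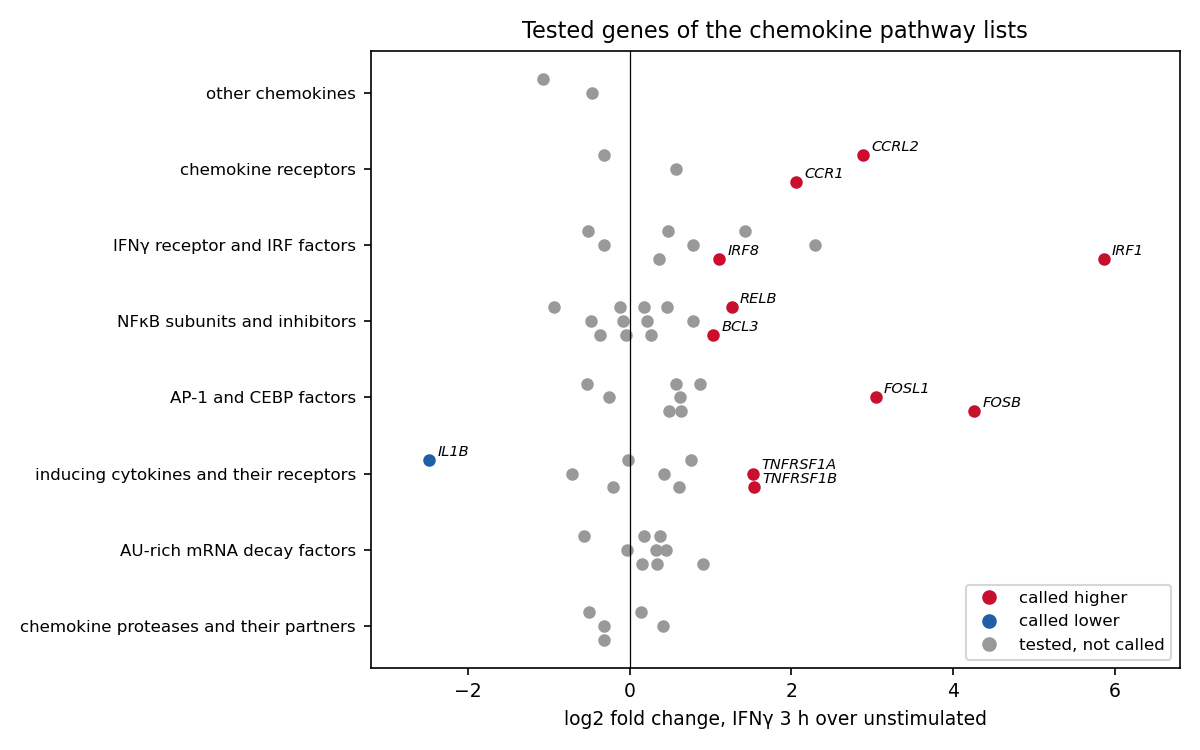
Log2 fold change (x axis, IFNγ 3 h over unstimulated) of each tested gene in 8 lists around the chemokines (y axis), with called genes named in red (higher) or blue (lower) and other tested genes in grey. IRF1 stands at 5.86 and IRF8 at 1.11, and 0 genes were called among the mRNA decay factors and the chemokine proteases.

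Factors that act on chemokine mRNA or protein all passed the filter, and 0 were called by edgeR or by DESeq2. Of 9 AU-rich mRNA decay factors, proteins that control the life of unstable cytokine mRNAs, 0 were called, while 2 were higher and 1 was lower on the adjusted p alone (background 9.02% and 11.0%), and 4 and 1 on the unadjusted p. Without unstimulated replicate 1, ZC3H12A, an RNase that degrades cytokine mRNAs, was called higher at 1.16 (edgeR adjusted p = 0.0232), against 0.91 with all libraries. The most abundant were ZFP36L2, KHSRP and HNRNPD, with log2 fold changes of -0.03, 0.33 and 0.15. Of 5 genes for chemokine-cleaving proteases and their partners 0 were called. Of these, 1, ADAM10, was lower on the adjusted p alone, beside 11.0% of all tested genes. On the unadjusted p 1 was higher and 1 lower. ADAM10, known to release CXCL16 and CX3CL1 from the membrane, had 1729 and 1332 counts without IFNγ and 1309 and 906 after IFNγ (log2 fold change -0.50, SE 0.114, adjusted p = 0.0228 from edgeR). ADAM17, the other known sheddase, was at -0.32 (adjusted p = 0.161). DPP4, which trims the CXCR3 ligands, was the most abundant of the list at 649 ± 81.4 CPM in unstimulated and 717 ± 80.3 CPM in IFNγ-treated cells (SD, n = 2), a log2 fold change of 0.14 (adjusted p = 0.491, both from edgeR).

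Genes with the most similar profiles were found by the distance between mean-centred log2 CPM values over the 4 libraries, which is a description and not a test. Nearest to CXCL9 were PSMB9 (distance 0.07), LRRC66 (0.18) and MT1X (0.23). Because CXCL9 had 0 counts in the unstimulated libraries, its profile and hence its nearest genes depend on the prior count of 2. PSMB9, an immunoproteasome subunit, had 10 and 7 counts without IFNγ and 134 and 67 after IFNγ. Nearest to CXCL16 were C19orf47, NECTIN2 and C1orf116 (0.01 to 0.02), and nearest to CX3CL1 were PEMT, PTCD1 and KIRREL1 (0.01 to 0.02). For CXCL2 they were PPIAP9, CASS4 and DHRS2 (0.13 to 0.20), and for CCL20 PIGUP1, GPR153 and ENSG00000272960 (0.07 to 0.09).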

How the data were processed

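RNA was sequenced from 4 Caco-2 libraries, 2 per condition. The counts that the authors deposited are whole reads per Ensembl gene, not normalized, with a column for each library. The submitters' processing notes name HISAT 0.5.1 and HTSeq 0.6.1p1, while the genome build and strand setting of these libraries are not given in the sources used here. Symbols came from GENCODE 44 mapped to GRCh37 (96.5% of identifiers), as did coordinates, GC content and lengths, so genes with a changed identifier may be unmatched. Genes were filtered with edgeR's default, scaled by TMM and tested by quasi-likelihood (edgeR 4.0.16, R 4.3.3), with Benjamini-Hochberg adjustment over all 14820 tested genes. The SE of a log2 fold change was its size over the root of the F statistic. The alternatives were DESeq2 1.42.0, other scalings, other filters and thresholds, a replicate block, removal of a loess trend with GC content and length, and each library left out in turn, where the lone library of a condition was assumed to vary like the other condition. The test was checked on simulated counts with the same spread for every gene. There, 4-fold changes were set only in genes with a mean above 2 CPM. The check recovered 100% of them, with 1.79% of calls false, but did not cover changes at the low levels of CXCL9, CXCL2 and CCL20. Depth was 7171455 to 10365346 counts per library. The text names all 10 members and, of each pathway list, the called genes and the 3 most abundant tested genes, with every tested chemokine and receptor and the 3 nearest profiles per member with at least 10 counts in 2 libraries. CCL2, PSMB9's counts, IFNGR2, IRF9, SOCS1, ZC3H12A, untested receptors and TNF were added after their values were seen. Some genes of the lists are not reported here and were left out of the list counts. The members and lists were chosen with earlier results of these data known.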

Additional observations from a re-analysis of the deposited data

How the results depend on the processing

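CXCL9 had 0 counts in both unstimulated libraries, so its direction could not change under any alternative. Of the members, 0 were called higher with DESeq2 and with at least 10 counts required in every library. CXCL9 had no adjusted p in the former and was not tested in the latter, nor was it tested without IFNγ replicate 1. On the adjusted p alone 2 members passed, CXCL9 and CXCL16. When single libraries were left out, 0 to 1 members were called higher. CXCL16 and CX3CL1 were higher under all 12 alternatives. CXCL2 was higher under all 11 that tested it, but it passed the filter only through the IFNγ libraries. CCL20 changed sign without unstimulated replicate 1 (-0.02), the library with its lowest count, and its range over single omissions reached 1.02. Over all genes the adjusted p alone gave 1337 higher and 1626 lower, an adjusted p under 0.01 gave 304 higher and 382 lower, and removal of the GC and length trend 323 lower (54.5% of calls higher against 39.6%), and the cause was not tested. Leaving out single libraries gave 339 to 455 higher and 554 to 1112 lower, with the most lower calls without IFNγ replicate 1, which left 27.3% of calls higher. The lists held 11 called genes, 25 on the adjusted p alone, 7 with at least 10 counts in every library, and 8 to 11 with each library left out.

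The replicate numbers were not described as shared batches. Deviations of same-numbered libraries from their condition mean correlated at 0.415 across genes, over 2 pairs that share only a number. With the replicate number as a block 492 genes were called higher and 896 lower, with 1 member (CXCL9) and 14 list genes. Without a filter on low counts the spread was fully shared across genes in edgeR (infinite prior degrees of freedom), so its p-values, 1.51e-07 for CXCL9 among them, are not comparable with the others. Depth limits CXCL1, CXCL3, CXCL8, CXCL10 and CXCL11, for which a change could not be seen.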
